A study of Oryza sativa Japonica Group with 4 samples.

Results

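The regions described here are the differentially methylated regions (DMRs) of the distal short-arm ends of rice chromosomes 11 and 12, a pair of chromosome ends known to share duplicated sequence. A DMR was taken as a member when its midpoint lay in the first 2.5 Mb of Chr11 (the Chr11 copy) or in the first 2.5 Mb of Chr12 (the Chr12 copy), in the coordinates of the MSU7.0 assembly. The rule found 17087 of the 1245898 DMRs of the series, 8518 in the Chr11 copy and 8569 in the Chr12 copy. No methylation value was used to choose them. The sequence of the assembly was not used here, so that the extent of the duplication could not be checked, and the copies are defined by distance from the chromosome end alone.

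Bisulfite sequencing (BS-seq) was carried out on 4 libraries of DNA from Nipponbare rice seedlings, 1 per condition. In the M.CviP I library, the GpC methyltransferase M.CviP I (8 units) acted on 4 µg of purified genomic DNA with 640 µM S-adenosylmethionine at 37 °C for 1 h, and untreated DNA was its CK. The growth label gives seedlings harvested at 2 weeks for all libraries. For the zebularine library and its CK this does not match the age and days of treatment given next. In the zebularine library, the DNA came from 100 seedlings that were 5 days old when they were exposed for 5 days to 80 µM zebularine, an inhibitor of DNA methyltransferases, and seedlings given DMSO were its CK. A hypo-DMR is a region with a lower level in the zebularine library than in its CK, and a hyper-DMR is a region with a higher level in the M.CviP I library than in its CK.

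In plants cytosines are methylated in CG, CHG and CHH contexts, where H is A, C or T. CG methylation is copied after replication by MET1, CHG methylation is kept by the chromomethylase CMT3, and CHH methylation is laid down anew by CMT2 and by RNA-directed DNA methylation. M.CviP I, which the labels call a CpG methyltransferase, is known to methylate cytosines that follow a G, whatever base comes next, so that it can act in all of these contexts, and on purified DNA it meets no nucleosomes. The ends of chromosomes 11 and 12 are a textbook case in rice of paired duplicated blocks whose sequences have stayed similar, in part through gene conversion. Distal chromosome arms of rice are gene-rich, while the regions around the centromeres are rich in heavily methylated transposons.

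The copies held 1861 of the 189883 hypo-DMRs and 15226 of the 1056015 hyper-DMRs. In the Chr11 copy 921 regions were hypo-DMRs and 7597 were hyper-DMRs, and in the Chr12 copy these counts were 940 and 7629. Each listed region carried the mean methylation level of its cytosines under treatment and in CK as a fraction between 0 and 1, with at least 5 cytosines, a length of at most 501 bp and an absolute difference of at least 0.1. With 1 library per condition, the differences between libraries had no replicate check and no test was made. The number of reads behind a level is unknown beyond the minimum of 3 reads per position that the methods state. The 95% intervals below cover the counting of regions only, and neighbouring regions are not independent of each other. At the limit of the Chr11 copy, the last member was a CHG hyper-DMR at Chr11:2499029-2499200 (0.705 with M.CviP I and 0.247 in CK), and the next region outside was a CHH hyper-DMR at Chr11:2499813-2500261 (0.497 and 0.264). In the Chr12 copy the last member was a CHH hyper-DMR at Chr12:2499572-2499834 (0.606 and 0.128), followed outside by one at Chr12:2500853-2501348 (0.470 and 0.0346).

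Both copies held fewer CG hypo-DMRs and more CG and CHG hyper-DMRs per Mb than the rest of their chromosomes, and nearly the same number of CHH hyper-DMRs. In 500 bp windows, 24.24% of the 10000 windows of both copies were touched by a CG hypo-DMR over 1 base or more, against 32.6% of the 746467 windows of all 12 chromosomes. A CG hyper-DMR was found in 23.89% of the windows of the copies, against 20.6% of all windows. For CHG hyper-DMRs the share was 58.01% in the copies and 48.9% in all windows. CHH hyper-DMRs reached 93.97% of the windows of the copies and 94.4% of all windows, so that their share in the copies was near the background. CHG hypo-DMRs reached 39 windows of the copies (0.39%, against 0.853% of all windows), and CHH hypo-DMRs reached 47 (0.47%, against 0.747%).

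For losses after zebularine in the CG context, the Chr11 copy held 887 regions or 354.8 per Mb, against 558.7 per Mb in the rest of Chr11, a ratio of 0.635 (exact binomial 95% interval 0.593 to 0.680). The Chr12 copy held 913 regions or 365.2 per Mb, against 578.7 per Mb in the rest of Chr12, a ratio of 0.631 (0.590 to 0.675). The sequence under these regions made up 10.9% of the Chr11 copy and 11.5% of the Chr12 copy, against 19.0% and 19.9% of the rest of these chromosomes. The regions were also shorter, with a median length of 308 bp in the Chr11 copy and 321 bp in the Chr12 copy, against 383 and 395 bp in the rest. Between the copies, the ratio of the densities, Chr11 over Chr12, was 0.972 (0.885 to 1.07), an interval that includes equal densities. With copies of 2 Mb the ratio was 1.087.

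Losses outside CG were rare in both copies. CHG hypo-DMRs numbered 14 in the Chr11 copy, or 5.6 per Mb against 11.7 per Mb in the rest of Chr11 (ratio 0.479, 0.259 to 0.816). In the Chr12 copy there were 11, or 4.4 per Mb against 10.9 per Mb in the rest of Chr12 (ratio 0.405, 0.2 to 0.736). CHH hypo-DMRs numbered 20 in the Chr11 copy (8.0 per Mb, against 11.1 in the rest of Chr11) and 16 in the Chr12 copy (6.4 per Mb, against 8.95 in the rest of Chr12). The intervals of these CHH ratios, 0.434 to 1.14 and 0.402 to 1.19, included equal densities. So few regions could not separate the copies from each other, and the ratio of Chr11 over Chr12 was 1.27 (0.537 to 3.10) for CHG and 1.25 (0.615 to 2.58) for CHH.

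For gains after M.CviP I in the CG context, the Chr11 copy held 920 regions or 368 per Mb, against 219.6 per Mb in the rest of Chr11 (ratio 1.68, 1.56 to 1.80). The Chr12 copy held 913 regions or 365.2 per Mb, against 213.2 per Mb in the rest of Chr12 (ratio 1.71, 1.60 to 1.84). CHG hyper-DMRs numbered 2336 in the Chr11 copy, or 934.4 per Mb against 649.7 in the rest of Chr11 (ratio 1.44, 1.38 to 1.5). They numbered 2333 in the Chr12 copy, or 933.2 per Mb against 658.0 in the rest of Chr12 (ratio 1.42, 1.36 to 1.48). CHH hyper-DMRs numbered 4341 in the Chr11 copy and 4383 in the Chr12 copy, with ratios to the rest of 0.991 (0.960 to 1.02) and 0.985 (0.955 to 1.02). At the copy length used here, the copies differed from each other by 1% or less in all 3 contexts of the hyper-DMRs. Chr11 over Chr12 gave ratios of 1.01 (0.919 to 1.11) in CG, 1.00 (0.945 to 1.06) in CHG and 0.990 (0.95 to 1.03) in CHH. With copies of 2 Mb the ratios were 0.887 in CG, 0.947 in CHG and 0.991 in CHH. By covered bases they were 0.981, 0.962 and 0.988. The closeness of the CG and CHG counts therefore depended on the length chosen for the copies.

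Since chromosome arms and centromeric regions differ, the copies were also set beside windows of the same 2.5 Mb size. Among the 11 full windows of Chr11, the copy had the fewest CG hypo-DMRs (the others held between 368 and 788 per Mb) and the most CG and CHG hyper-DMRs (the others reached 308.4 and 812 per Mb). On Chr12 the copy was likewise first of 11 for CG and CHG hyper-DMRs, where the others reached 329.6 and 924.4 per Mb, and it stood in place 10 for CG hypo-DMRs. The opposite end of Chr12 came close to its copy: the last 2.5 Mb of Chr12 held 345.2 CG hypo-DMRs, 327.6 CG hyper-DMRs and 927.6 CHG hyper-DMRs per Mb. With this end as the comparison, the ratios of the Chr12 copy were 1.06 for CG hypo-DMRs, which turned the direction, 1.12 for CG hyper-DMRs and 1.01 for CHG hyper-DMRs. The last 2.5 Mb of Chr11 held 491.2 CG hypo-DMRs, 278.8 CG hyper-DMRs and 753.6 CHG hyper-DMRs per Mb.

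**Figure D1:**
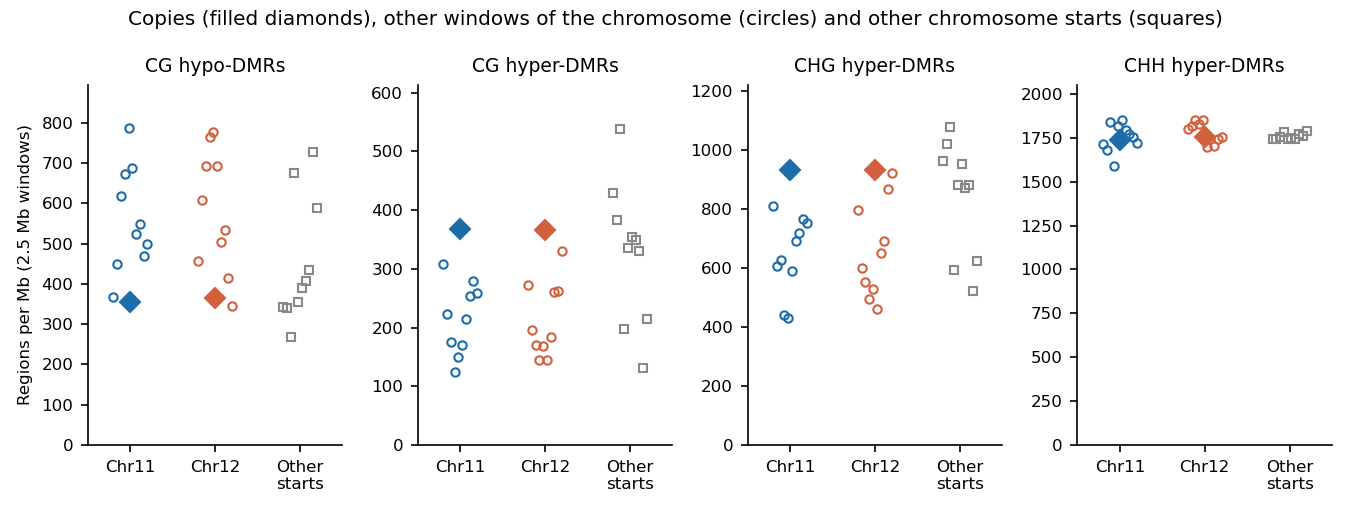
DMRs per Mb (vertical axis) in 2.5 Mb windows, with panels for CG hypo-DMRs and for CG, CHG and CHH hyper-DMRs. Filled diamonds are the copies, open circles the other 10 full windows of the same chromosome and grey squares the first 2.5 Mb of the other 10 chromosomes. The copies are the highest windows of their chromosomes for CG and CHG hyper-DMRs, but lie within the range of the other chromosome starts.

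The first 2.5 Mb of the other 10 chromosomes gave a narrower contrast. There, CG hypo-DMRs were found at 452.8 per Mb and ranged between 268.4 and 727.2 per Mb over the chromosomes, with a median of 398.4. Placed among these 10 starts, each copy came 7th for CG hypo-DMRs. Over both copies together the ratio to the other starts was 0.795 (0.756 to 0.836) for CG hypo-DMRs, 1.13 (1.07 to 1.18) for CG hyper-DMRs, 1.11 (1.08 to 1.15) for CHG hyper-DMRs and 0.992 (0.970 to 1.02) for CHH hyper-DMRs. For CG hyper-DMRs each copy came 4th of 11 and for CHG hyper-DMRs 5th of 11. Only in CHG hypo-DMRs did both copies come last of 11, with the other starts between 6 and 14 per Mb. That order rested on 14 regions in the Chr11 copy and 11 in the Chr12 copy, against 15 each on Chr2 and Chr3. By covered bases the Chr11 copy was still 11th, but the Chr12 copy was 10th.

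The level of methylation in CK was near 1 in CG hypo-DMRs and near 0 in hyper-DMRs, in the copies as elsewhere. The median CG hypo-DMR of the Chr11 copy had a level of 0.781 after zebularine and 0.949 in CK, a difference of -0.169 (interval -0.173 to -0.165), against -0.158 in the rest of Chr11. In the Chr12 copy the levels were 0.785 after zebularine and 0.952 in CK, a median difference of -0.163 (-0.167 to -0.158), against -0.157 in the rest of Chr12. The loss was under 0.2 in 69.0% of the CG hypo-DMRs of the Chr11 copy and 71.9% of those of the Chr12 copy, against 75.3% and 76.6% in the rest of these chromosomes. The median difference of the copy minus that of the rest was -0.011 on Chr11 and -0.0051 on Chr12, and that of the Chr11 copy minus the Chr12 copy was -0.0069.

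Gains were larger in the copies than in the rest of the chromosomes in each context. The median CG hyper-DMR had 0.743 with M.CviP I and 0.010 in CK in the Chr11 copy, a gain of 0.698 (0.685 to 0.717), against 0.624 in the rest of Chr11. In the Chr12 copy it had 0.745 with M.CviP I and 0.0109 in CK, a gain of 0.710 (0.691 to 0.720), against 0.625 in the rest of Chr12. The median CHG gain was 0.642 in the Chr11 copy against 0.563 in the rest of Chr11, and 0.628 in the Chr12 copy against 0.560 in the rest of Chr12. The median CHH gain was 0.501 in the Chr11 copy and 0.502 in the Chr12 copy, against 0.442 and 0.441 in the rest. Among the 11 windows of 2.5 Mb of its chromosome, each copy had the largest median gain in all 3 contexts. Among the chromosome starts this held in CG only, where the median gain of the other 10 starts ranged between 0.642 and 0.687. In CHG the other starts ranged between 0.508 on Chr9 and 0.656 on Chr3, and in CHH between 0.424 on Chr10 and 0.541 on Chr3, so that the copies lay inside both ranges.

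**Figure D2:**
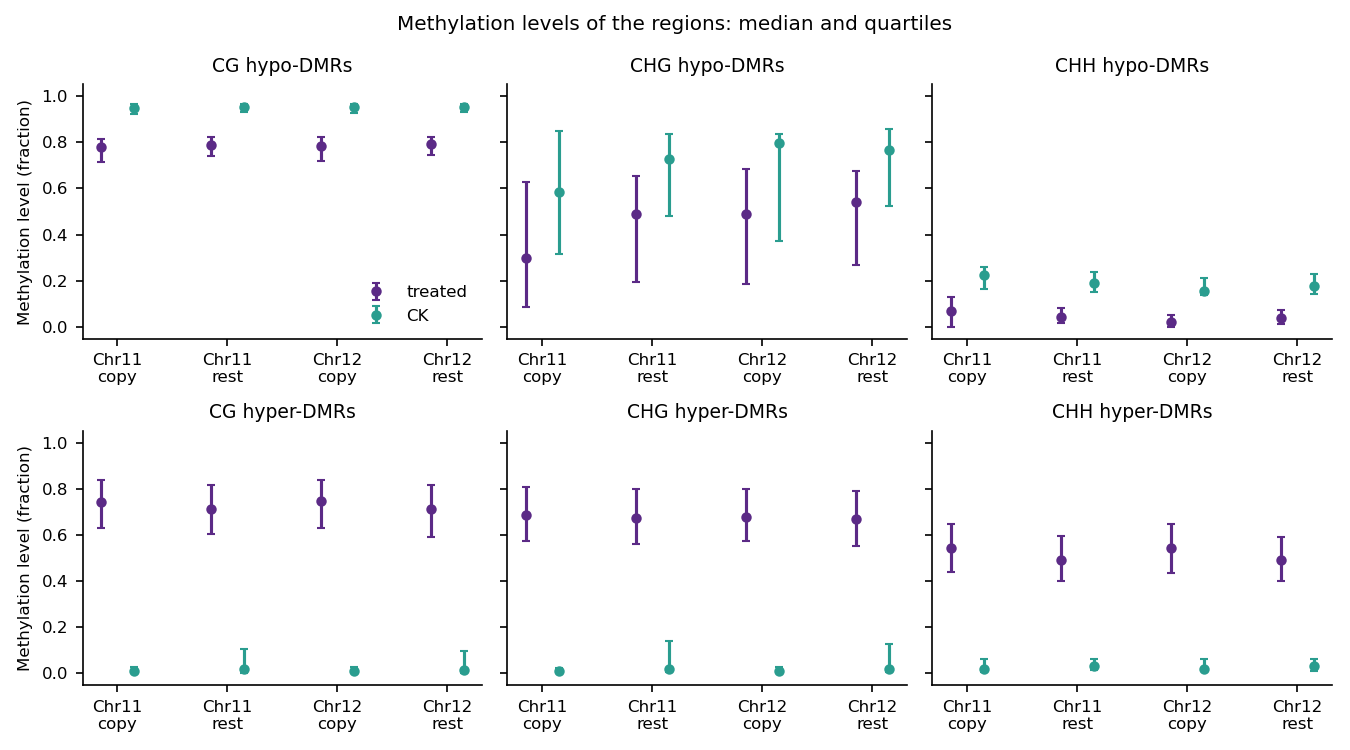
Median methylation level (points) with the lower and upper quartile of the regions (bars), as a fraction, in the treated library (purple) and in its CK (green), for each copy and for the rest of its chromosome. Treated is zebularine in the hypo-DMR panels and M.CviP I in the hyper-DMR panels; CK levels of CG hyper-DMRs reach higher in the rest of the chromosomes than in the copies, where the medians are 0.010 and 0.0109.

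The medians of both levels differed between the copies and the rest, with a higher M.CviP I level and a lower CK level in the copies in each context. The M.CviP I medians differed most in CHH hyper-DMRs, with 0.542 in the Chr11 copy and 0.545 in the Chr12 copy, against 0.491 and 0.490 in the rest. In CG hyper-DMRs they were 0.743 and 0.745, against 0.714 and 0.710, and in CHG hyper-DMRs 0.685 and 0.679, against 0.674 and 0.667. A CK level under 0.05 was found in 81.9% of the CG hyper-DMRs of the Chr11 copy and 81.3% of those of the Chr12 copy, against 67.6% and 67.3% in the rest of these chromosomes and 77.6% in the other chromosome starts. For CHG hyper-DMRs the shares were 82.2% and 80.5% in the copies, against 65.6% and 66.0% in the rest and 77.9% in the other starts, and the last 2.5 Mb of Chr12 had 80.3%. For CHH hyper-DMRs they were 69.5% and 68.7%, against 66.6% and 66.7% in the rest and 67.1% in the other starts.

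Counted over CHH hyper-DMRs, gains in all 3 contexts coincided more often in the copies, which also held more CG and CHG hyper-DMRs per Mb. Of the CHH hyper-DMRs, 20.3% in the Chr11 copy and 20.8% in the Chr12 copy shared a base with both a CG and a CHG hyper-DMR, against 12.2% and 11.5% in the rest and 17.7% in the other chromosome starts. The share with neither was 34.9% and 34.6% in the copies, against 51.7% and 51.8% in the rest and 40.5% in the other starts. Counted over CG hyper-DMRs the shares were closer: 78.4% in the Chr11 copy and 80.9% in the Chr12 copy overlapped a CHG hyper-DMR, against 77.6% and 76.0% in the rest and 77.6% in the other starts. A CHH hyper-DMR met 95% and 94.7% of the CG hyper-DMRs of the copies, against 95.9% of those of the rest of either chromosome. In the classes with neither and with both partners, the gains lay somewhat nearer to those of the rest than over all CHH hyper-DMRs. Gains of regions with a CHG partner only (41.17% and 41.41% of the CHH hyper-DMRs of the copies) or a CG partner only were not compared. CHH hyper-DMRs with neither partner had slightly lower median gains in the copies, at 0.383 and 0.373, against 0.388 and 0.389 in the rest. Those with both partners had higher ones in the copies, at 0.638 and 0.630, against 0.593 and 0.583 in the rest.

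Regions of loss and of gain also met. Of the CG hypo-DMRs, 132 of 887 in the Chr11 copy (14.9%, Wilson interval 12.7 to 17.4%) and 147 of 913 in the Chr12 copy (16.1%, 13.9 to 18.6%) overlapped a CHG hyper-DMR whose CK level was under 0.05. Here a region with CG methylation in the CK of zebularine shared at least 1 base with a region of little CHG methylation in the CK of M.CviP I. The levels are means over different stretches, so that CG methylation without CHG at the same cytosines was not shown. That pattern is known from the bodies of plant genes. For the CHG hyper-DMRs with a CK level under 0.05, the shares were 7.23% and 7.59% in the rest of Chr11 and Chr12. In the other chromosome starts that share was 13.9%. A CHG hyper-DMR of any CK level was overlapped by 265 (29.88%) and 296 (32.42%) CG hypo-DMRs of the copies. The shares for any CK level were 25.31% and 25.06% in the rest and 29.68% in the other chromosome starts. CHG hyper-DMRs were themselves denser in the copies, with 934.4 and 933.2 per Mb against 649.7 and 658.0 in the rest. More of them had a CK level under 0.05, 82.2% and 80.5% against 65.6% and 66.0%. The shares of overlap were not corrected for these densities. The position of the regions relative to genes was not analysed here.

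Along the copies, the densities were set side by side in 25 bins of 100 kb, counted from each chromosome end without an alignment of the sequences. CG hypo-DMRs ranged between 17 and 63 per bin in the Chr11 copy (median 33) and between 24 and 75 in the Chr12 copy (median 34). CG hyper-DMRs ranged between 7 and 66 (median 38) in the Chr11 copy and between 6 and 59 (median 34) in the Chr12 copy. CHG hyper-DMRs numbered 25 to 115 (median 95) and 23 to 116 (median 96) per bin, and CHH hyper-DMRs 104 to 192 (median 178) and 113 to 189 (median 179). The lowest bin of each hyper-DMR class was the first 100 kb in both copies, while that at 1300 to 1400 kb had the lowest number of CG hypo-DMRs in both, on Chr11 tied with 1 other bin.

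**Figure D3:**
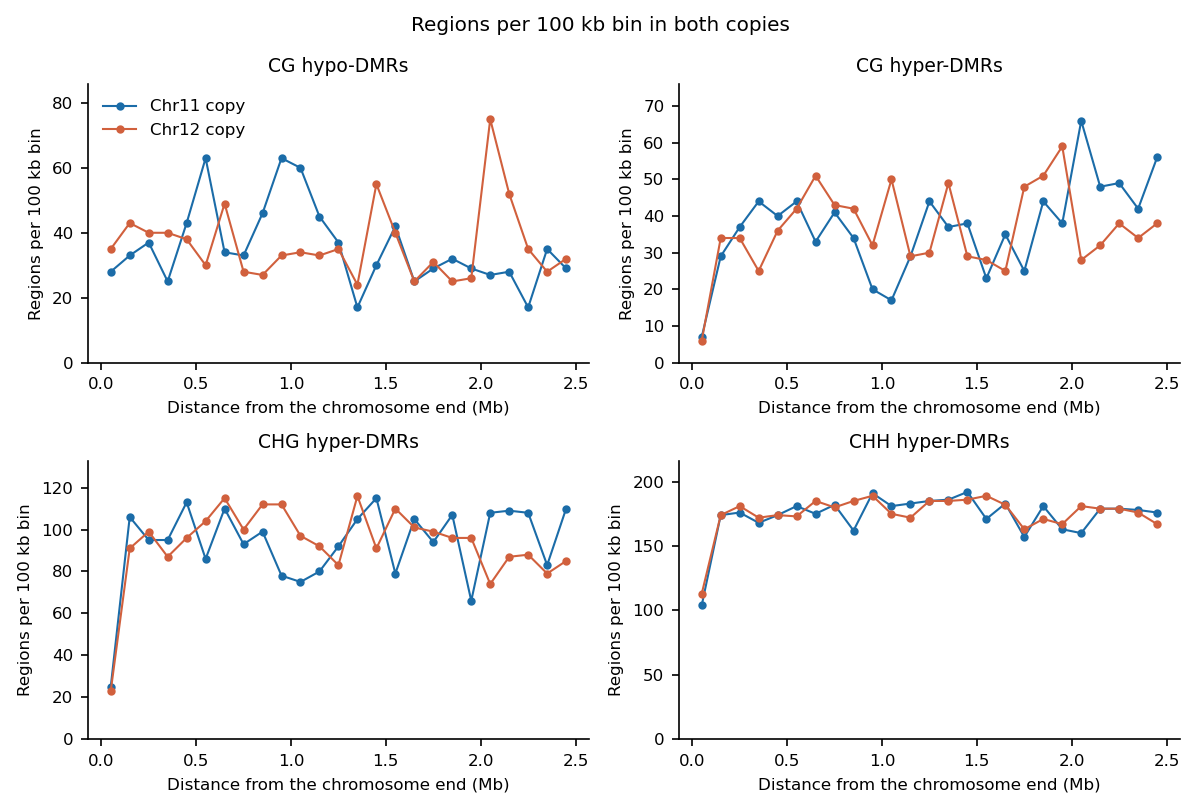
Number of DMRs per 100 kb bin (vertical axis) against distance from the chromosome end in Mb, for the Chr11 copy (blue) and the Chr12 copy (orange). In the first bin all 3 classes of hyper-DMR are at their lowest in both copies, and the largest gap in CG hypo-DMRs lies at 2.0 to 2.1 Mb, where the Chr11 copy has 27 and the Chr12 copy 75.

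The near-equal totals of the copies over 2.5 Mb were not made up of equal bins. The largest gap in CG hypo-DMRs lay at 2000 to 2100 kb, with 27 in the Chr11 copy and 75 in the Chr12 copy. The same bin had the largest gap in CG hyper-DMRs, in the opposite direction, with 66 in the Chr11 copy and 28 in the Chr12 copy. The reverse order was seen at 900 to 1100 kb, where the Chr11 copy held 63 and 60 CG hypo-DMRs in consecutive bins against 33 and 34 in the Chr12 copy, and 20 and 17 CG hyper-DMRs against 32 and 50. For CHG hyper-DMRs the largest gap was that at 900 to 1000 kb, with 78 in the Chr11 copy and 112 in the Chr12 copy. For CHH hyper-DMRs it was 162 against 185 at 800 to 900 kb. CG hypo-DMRs were more numerous in the Chr11 copy in 12 bins and in the Chr12 copy in 12 bins.

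Within each copy, bins with many CG hypo-DMRs tended to hold few CG hyper-DMRs, with a Pearson correlation over the 25 bins of -0.368 in the Chr11 copy and -0.322 in the Chr12 copy. Without the first 100 kb the values were -0.498 and -0.409 over 24 bins. CG and CHG hyper-DMRs followed each other, with 0.658 in the Chr11 copy and 0.646 in the Chr12 copy (0.501 and 0.394 without the first bin). All bins of a copy come from the same libraries and share their base composition with their neighbours, so these values are descriptions.

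Between the copies, the profile of CG hypo-DMRs had a Pearson correlation of -0.134 over the 25 bin pairs (Spearman -0.0180), place 52 among the 66 pairs of chromosome starts. For CG hyper-DMRs the correlation was 0.153 (Spearman 0.0265). It was 0.516 for CHG hyper-DMRs (Spearman -0.0771) and 0.850 for CHH hyper-DMRs (Spearman 0.436), places 4 and 1 of 66. The highest value among the other 65 pairs was 0.609 for CHG and 0.783 for CHH hyper-DMRs. These places were taken with the first 100 kb included and were not computed without it. The positive sign of the CG and CHG hyper-DMR correlations rested on the first 100 kb: without it, they were -0.173 and -0.15 over 24 bins. For CHH hyper-DMRs the correlation without it was lower but kept its sign, at 0.414 (Spearman 0.362). The median CK level of CHG hyper-DMRs had a correlation of 0.710 with it and 0.137 without it.

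The copies shared a gap in all 3 classes of hyper-DMR over their first 100 kb. In this bin the Chr11 copy held 7 CG, 25 CHG and 104 CHH hyper-DMRs, against means of 38.0, 96.3 and 176.5 per bin in its other 24 bins. The Chr12 copy held 6, 23 and 113, against 37.8, 96.3 and 177.9. CG hypo-DMRs were closer to their mean, with 28 in the first bin of the Chr11 copy against a mean of 35.8, and 35 in that of the Chr12 copy against 36.6. Regions of any list and context covered 44.6% of the first 100 kb of Chr11 and 46.3% of that of Chr12. In the other 10 chromosomes this share lay between 43.7% on Chr9 and 91.2%, with a median of 85.6%. Taken by class, the first 100 kb of Chr6 and Chr9 were low as well. CG hyper-DMRs covered 0.955% of it on Chr6 and 0.473% on Chr9, against 1.485% on Chr11 and 0.961% on Chr12. CHG hyper-DMRs covered 4.941% and 6.113%, against 7.03% and 6.982%. CHH hyper-DMRs covered 68.81% on Chr6 and 41.28% on Chr9, against 41.97% on Chr11 and 43.95% on Chr12.

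**Figure D4:**
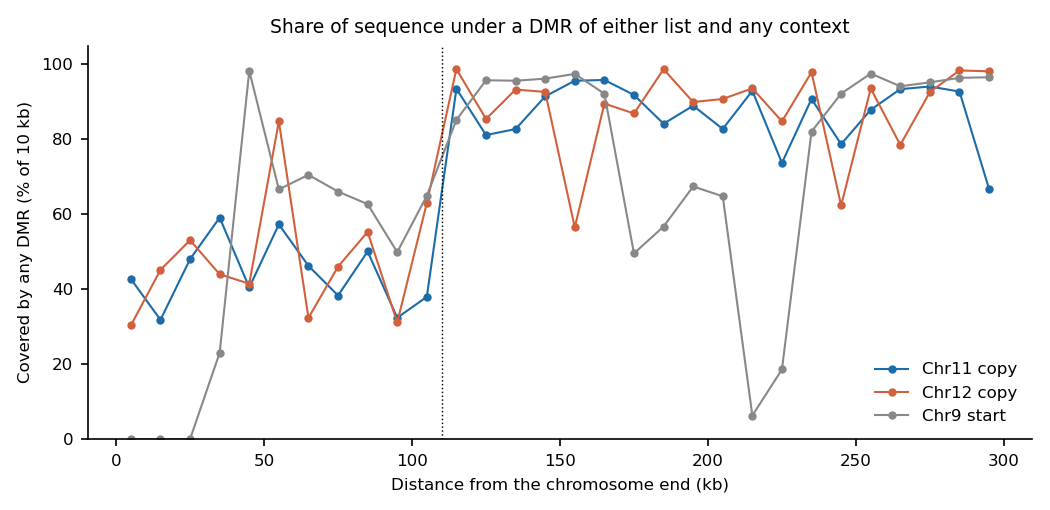
Percent of each 10 kb step covered by a DMR of either list and any context, against distance from the chromosome end in kb, for the Chr11 copy (blue), the Chr12 copy (orange) and the start of Chr9 (grey), the other chromosome start with a low share. Left of the dotted line at 110 kb most steps of both copies lie between 30.3 and 63.0%; right of it their medians are 90.7% and 92.6%.

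The edge of the gap fell at nearly the same distance in both copies. In steps of 10 kb, the covered share was 31.8 to 59.1% over the first 100 kb of Chr11 (median 44.5%) and 30.3 to 84.8% over that of Chr12 (median 44.6%), where the single step at 50 to 60 kb was the highest. At 100 to 110 kb it was 37.9% on Chr11 and 63.0% on Chr12. Over the next 19 steps, up to 300 kb, the median was 90.7% on Chr11 (66.7 to 95.8%) and 92.6% on Chr12 (56.5 to 98.7%). The low share of Chr9 had another form, with 0% over the first 30 kb and 23.0 to 98.2% (median 66.0%) between 30 and 100 kb.

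Each copy had 17 stretches of at least 1 kb without a DMR in its first 100 kb, against 1.88 per 100 kb in the remaining Chr11 copy and 2.58 in the remaining Chr12 copy. The longest of those in the first 100 kb lay at similar positions, Chr11:5921-11375 (5.46 kb) and Chr12:5197-9890 (4.69 kb). The longest stretch was 7.54 kb in the remaining Chr11 copy, longer than that of its first 100 kb, and 2.92 kb in the remaining Chr12 copy. The CHH hyper-DMRs of this bin were also built of fewer cytosines, with a median of 36 in both copies against 53 in the other bins, at median lengths of 473.5 and 472 bp against 493 bp. A region can be called only where cytosines reached the read minimum, and per the methods only uniquely mapped reads were counted, so that reads fitting both copies equally well were left out. The part of this in the low share was not tested, since the number of counted reads per cytosine is not in the lists used here.

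In the absence of an alignment, duplicate regions were sought by their form: 2 consecutive DMRs of 1 list and context with the same lengths, the same cytosine numbers and the same gap between them in both copies. None was found among 8512 runs of the Chr11 copy and 8563 runs of the Chr12 copy. The other 65 pairs of chromosome starts gave 0 to 3 such runs, with at least 1 in 16 pairs. The search requires identical positions of the called cytosines, so that it gives no measure of the similarity of the sequences.

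All 25 CHG and 36 CHH hypo-DMRs of the copies were examined one by one. No CHG hypo-DMR of the copies had a CK level between 0.35 and 0.5. In the Chr11 copy 8 of 14 and in the Chr12 copy 8 of 11 had at least 0.5, and the other 6 and 3 were below 0.35. These limits were not set in advance, and so few regions cannot show 2 separate ranges. In the rest of Chr11 the lower quartile of the CK level was 0.481, between the limits. Losses ranged between -0.347 and -0.102 in the Chr11 copy and between -0.306 and -0.107 in the Chr12 copy. The most methylated one, at Chr11:1599262-1599423 with 22 cytosines, had 0.876 after zebularine and 0.977 in CK. The largest loss was that at Chr11:1961928-1962407, with 0.291 after zebularine and 0.637 in CK. In the Chr12 copy the largest loss was at Chr12:2494369-2494720, with 0.491 after zebularine and 0.797 in CK. A CG hypo-DMR shared a base with 12 of the 14 CHG hypo-DMRs of the Chr11 copy and with 8 of the 11 of the Chr12 copy, against 77.4% in the rest of Chr11 and 75.4% in the rest of Chr12.

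**Figure D5:**
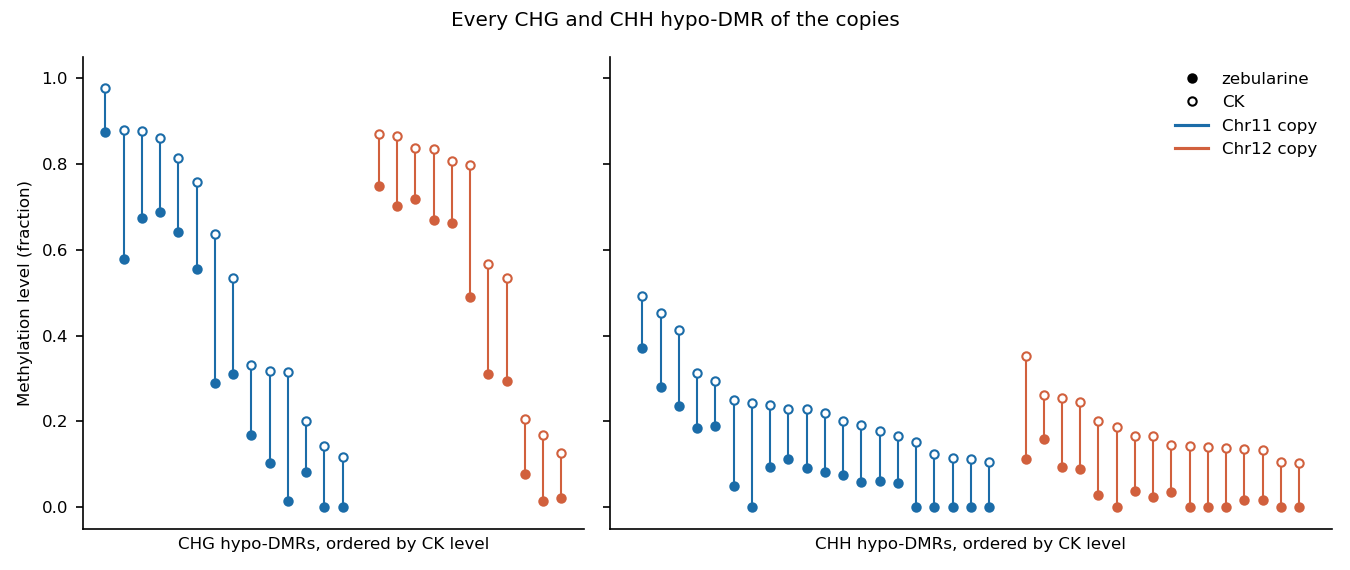
Methylation level (fraction, vertical axis) of every CHG (left) and CHH (right) hypo-DMR of the copies after zebularine (filled) and in CK (open), joined by a line and ordered by CK level, Chr11 copy in blue and Chr12 copy in orange. CHG hypo-DMRs have CK levels either of at least 0.5 or below 0.35, while all CHH hypo-DMRs have CK levels below 0.5.

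CHH hypo-DMRs started lower, with CK levels of 0.104 to 0.492 in the Chr11 copy and 0.104 to 0.353 in the Chr12 copy. In each copy 6 of them were at 0 after zebularine. A CG hypo-DMR shared a base with 7 of the 20 in the Chr11 copy and 5 of the 16 in the Chr12 copy (35.0% and 31.3%), against 46.6% and 40.6% in the rest of these chromosomes. The highest one, at Chr11:1858164-1858662 with 82 cytosines, had 0.371 after zebularine and 0.492 in CK. The first 100 kb held no CHG hypo-DMR in either copy, and 2 CHH hypo-DMRs in the Chr12 copy.

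The CG and the CHH hypo-DMR with the smallest p-values of the Chr11 copy lay at 1 place. At Chr11:2360498-2360627, 21 CG cytosines had a level of 0.0024 after zebularine and 0.231 in CK, and within it, at Chr11:2360507-2360622, 16 CHH cytosines had 0 after zebularine and 0.244 in CK. At lower coordinates beside them, CHH cytosines at Chr11:2360282-2360339 had 1 with M.CviP I and 0 in CK, and CHG cytosines at Chr11:2360293-2360317 had 0.971 and 0.0357. The leading CG hypo-DMR of the Chr12 copy, at Chr12:2048352-2048850 with 84 cytosines, was of the common kind, with 0.825 after zebularine and 0.967 in CK. It lies in the bin with the 75 CG hypo-DMRs. The leading CHG hypo-DMRs were at Chr11:2303910-2304395 (59 cytosines, 0.104 after zebularine and 0.319 in CK) and at Chr12:2135994-2136471 (16 cytosines, 0.015 and 0.168), and the leading CHH hypo-DMR of the Chr12 copy was at Chr12:29217-29279 (7 cytosines, 0 and 0.187).

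The smallest p-value of the hyper-DMRs was shared by several regions that were fully methylated with M.CviP I and unmethylated in CK. There were 17 such CG regions in the Chr11 copy and 19 in the Chr12 copy, 31 and 33 CHG regions, and 10 and 17 CHH regions. The first along the Chr11 copy were at Chr11:362139-362312 in CG (11 cytosines), Chr11:108137-108199 in CHG (5 cytosines) and Chr11:436246-436351 in CHH (5 cytosines). In the Chr12 copy they were at Chr12:126586-126719 in CG (5 cytosines), Chr12:26941-27051 in CHG (8 cytosines) and Chr12:128013-128118 in CHH (8 cytosines).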

How the data were processed

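DMRs came from 4 BS-seq libraries, 1 per condition, grouped by their titles. According to the methods, the authors used Fastp for trimming and Bismark for mapping to MSU7.0 (Bismark is named in the submitters' processing notes, its version is not given in the sources used here), kept uniquely mapped reads and positions with at least 3 reads, and called DMRs with CGmapTools at P below 0.01 and a difference of at least 0.1. The deposited levels are a fraction from 0 to 1, the mean over the cytosines of a region. The deposited p-value is the unadjusted one of the authors' region test, used only to choose named regions and as an alternative cutoff. The number of cytosines was used as deposited. The deposited t statistic and difference hold the authors' own comparison and were not used; differences were recomputed as treated minus CK. The lists have no header, and the treated and CK columns were identified from the direction each list is named for.

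From these, regions per Mb, covered shares, 500 bp windows, medians and 100 kb bins were computed with Python 3.11.15, numpy 2.4.6, pandas 2.3.3 and scipy 1.17.1, without further filtering, and drawn with matplotlib 3.10.9. Chromosome lengths were the largest region ends (29.02 Mb for Chr11, 27.53 Mb for Chr12, 373.2 Mb in all). Density ratios have exact binomial intervals, medians order-statistic intervals and shares Wilson intervals. The counting was tested on simulated data. Named regions have the smallest p-value per list, context and copy, ties being broken by the largest difference and then by the lowest position, and named bins are the lowest, the highest and those with the largest gap. The regions at 1 place of Chr11, the largest CHG losses, the most methylated CHG and CHH hypo-DMRs and the bins at 900 to 1100 kb were singled out after their values were seen. The members and the tests were chosen with earlier results of these data known. Alternatives were a p-value of at most 0.001, a difference of at least 0.2, at least 10 cytosines, copies of 2 Mb, merging within 100 bp, covered bases, the last 2.5 Mb of the chromosome as the comparison, means, 250 shared bases per window, bins of 50 and 250 kb, and runs of 3 regions. Sequence and annotation of MSU7.0 were not used here.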

Additional observations from a re-analysis of the deposited data

How the results depend on the processing

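No paired analysis was possible because every condition is represented by a single library. Over 289 recomputed values, 250 stayed near the value reported, 36 moved and 3 reversed. Density ratios and shares counted as near within a factor of 1.5, median differences and correlations within the 95% interval of the value reported. A reversal was counted only where that interval excluded no difference. A ratio of Chr11 over Chr12 could therefore cross 1 and still count as near. The causes of the moves and reversals were not tested, and stricter cutoffs left smaller counts. Leaving out the first 100 kb was chosen after seeing the data. The read minimum could not be varied, and pairing bins by sequence was not run. Over all settings the density ratio to the rest of the chromosome was 0.574 to 0.798 (Chr11 copy) and 0.580 to 1.06 (Chr12 copy) for CG hypo-DMRs, 1.32 to 1.84 and 1.12 to 1.86 for CG hyper-DMRs, 1.24 to 1.57 and 1.01 to 1.55 for CHG hyper-DMRs, and 0.984 to 1.09 and 0.977 to 1.09 for CHH hyper-DMRs.

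With the last 2.5 Mb of the chromosome as the comparison, ratios of the Chr12 copy were 1.06 (CG hypo, reversed), 0.611 (CHG hypo), 1.46 (CHH hypo) and 1.12 (CG hyper). With p of at most 0.001, the CHG hypo ratio of the Chr11 copy was 0.217, and the median differences from the rest were 0.0654 (CHG hypo, Chr12 copy), 0.0542 and 0.0600 (CG hyper, Chr11 and Chr12 copy) and 0.0486 and 0.0503 (CHG hyper). With a difference of at least 0.2, the ratios were 2.33 (CHG hypo) and 2 (CHH hypo) for Chr11 over Chr12 and 0.371 (CHH hypo, Chr12 copy to rest), the median differences were -0.0018 and -0.0121 (CG hypo, Chr11 and Chr12 copy) and 0.0565 (CHG hyper, Chr12 copy), and the CG hypo median, Chr11 minus Chr12 copy, reversed to 0.0087. With at least 10 cytosines, the median differences were -0.0053 (CG hypo, Chr11 copy), 0.110 and 0.130 (CG hyper) and 0.0838 (CHG hyper, Chr12 copy). Means gave 0.0441 and 0.0434 for CHH hyper. With copies of 2 Mb, the CHG hypo ratios were 0.230 (Chr12 copy to rest) and 2.6 (Chr11 over Chr12). The bin correlation of CHH hyper-DMRs was 0.593 in 50 kb bins and 0.414 without the first 100 kb, and that of CHG hyper-DMRs reversed to -0.15 without it. With at least 250 bases per 500 bp window, the shares of windows in the Chr11 and the Chr12 copy were 10.42 and 10.54% (CG hypo), 0.12 and 0.14% (CHG hypo), 0.06 and 0.06% (CHH hypo), 7.1 and 7.56% (CG hyper) and 30 and 32.24% (CHG hyper). By covered bases the Chr11 copy came 8th of 11 starts for CHH hypo-DMRs, against 10th by regions. The unknown depth limits every single level, and the counts of CHG and CHH hypo-DMRs limit their ratios.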
